A study of Homo sapiens with 2 samples.

Results

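The intervals described here are 512 regions that lie inside genes, more than 50 kb from the gene start the authors assigned. They are among 4169 regions recovered with an antibody against sGCβ1 from U-87 MG cells. They were chosen from the deposited interval list by 5 conditions. Every gene assigned to the interval had to contain the summit. No promoter and no CpG island could be counted in it. Its peak height had to be under 30, and the nearest assigned gene start had to be over 50000 bp from the summit. Height, gene assignment and distance therefore chose the members, and these values are given as description only. The same conditions with a distance of up to 50 kb gave 452 intervals, called near intragenic intervals below. A further 957 intervals with height under 30 had no assigned gene, promoter or CpG island and are called low intergenic intervals.

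Chromatin immunoprecipitation with sequencing (ChIP-seq) was carried out in U-87 MG, an established line from a malignant glioma, made to overexpress sGCβ1. There was 1 ChIP library, prepared with anti-sGCβ1, and 1 input library, prepared without an antibody from the same overexpressing cells. Cells carried no further treatment. All values below come from the intervals called in the ChIP library; the input library was not analysed here, nor were cells without overexpression or a control antibody. The single ChIP library gives no replicate error, and no test between conditions was possible. The bracketed 95% intervals cover counting error over intervals only, and the sequencing depth is unknown. In a pool of cells, a region bound in few cells and one bound weakly in all cannot be told apart.

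Nitric oxide is sensed by soluble guanylate cyclase, an enzyme known chiefly from the cytosol that turns GTP into cyclic GMP. Its beta subunit, sGCβ1, carries the haem group to which nitric oxide binds. Regions far from promoters, often in introns, can act as enhancers, which are stretches of DNA where sequence-specific factors bind and from which they regulate transcription at a distance. AP-1 is a factor of this kind, a dimer of FOS and JUN family proteins that is induced by growth factors and stress. Its usual binding word in DNA is TGACTCA, which reads TGAGTCA on the other strand. The word searched here and called the AP-1 word, TGANTCA, is wider. Its N is any base, so A or T in the centre also counts.

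The AP-1 word was the sequence that stood out at these summits, so 8 of the tallest members that hold it within the 200 bp around the summit are shown. Each line gives 61 bases of hg19, plus strand, 5′ to 3′, centred on the word nearest the summit, and capitals mark TGANTCA on either strand.
SLC1A3 (chr5:36657702-36657762): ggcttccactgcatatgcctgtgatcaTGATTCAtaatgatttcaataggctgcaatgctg
PDE4DIP (chr1:144891938-144891998): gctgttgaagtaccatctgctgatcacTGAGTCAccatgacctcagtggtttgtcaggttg
SMAD3 (chr15:67417997-67418057): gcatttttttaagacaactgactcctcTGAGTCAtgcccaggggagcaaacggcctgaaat
DGKI (chr7:137457662-137457722): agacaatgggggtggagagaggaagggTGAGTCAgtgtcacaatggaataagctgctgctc
PCDH9 (chr13:67508246-67508306): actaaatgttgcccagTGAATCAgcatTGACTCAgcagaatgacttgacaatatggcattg
LNX1 (chr4:54345381-54345441): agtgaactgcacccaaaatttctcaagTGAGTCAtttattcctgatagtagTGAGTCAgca
KIAA1324 (chr1:109739936-109739996): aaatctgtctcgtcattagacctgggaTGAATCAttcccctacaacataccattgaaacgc
COL15A1 (chr9:101781953-101782013): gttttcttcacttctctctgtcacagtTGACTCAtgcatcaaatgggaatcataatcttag
The lines of PCDH9, a protocadherin gene, and LNX1, a ubiquitin ligase gene, each show 2 words. In SLC1A3 and KIAA1324 the central base of the word is A or T. PCDH9 has a word of each form, and the other 5 lines have C or G in the centre. DGKI encodes a diacylglycerol kinase and COL15A1 a basement membrane collagen.

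The members were low peaks by selection. Height, the authors' maximum fragment density, had a median of 13, quartiles of 12 and 16 and a range from 9 to 27. Near intragenic intervals had a median of 14, low intergenic intervals 14 and the whole list 14. The MACS score, minus 10 times log10 of the p-value, had a median of 90.1 in the members, where the lowest score in the list was 70, and reached 386. In length the members ranged between 614 and 7786 bp around a median of 1208 bp. Summits lay at a median distance of 115 kb from the assigned start, with quartiles of 72.0 and 219 kb and a maximum of 1225 kb.

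**Figure D1:**
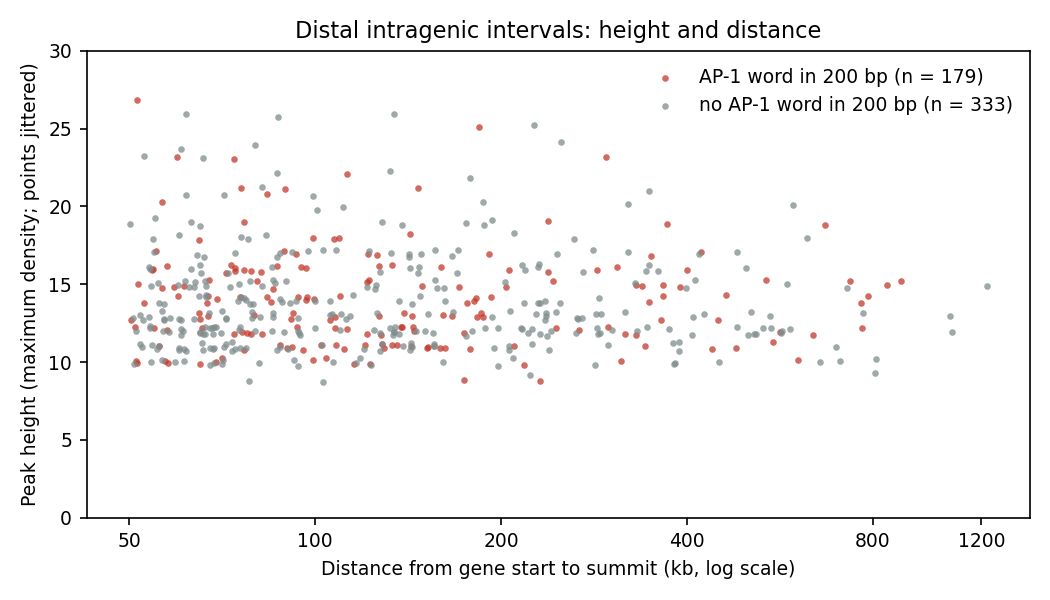
Each point is 1 of the 512 distal intragenic intervals, with the distance from gene start to summit on a log axis and peak height, slightly jittered, on the other; red points hold the AP-1 word in 200 bp (n = 179) and grey ones do not (n = 333). The 3 farthest points, beyond 1000 kb, have heights of 15, 12 and 13 and no word in their 200 bp.

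The members closest to the distance limit were those at MKLN1 at 50009 bp, SUMF1 at 50198 bp and TTN at 50582 bp. Just outside it were intervals at SYNJ2 at 49752 bp, MICAL2 at 48982 bp and KIAA0753 at 48967 bp. Only 4 intervals met every condition but height, those at CDK19 (32), ARMC3 (37), PALM2 (40) and MERTK (85).

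The tallest member, with a height of 27 and a score of 309, lay in SLC1A3, the gene of a glial glutamate transporter, on chromosome 5 from 36656143 to 36658554, in intron 3 and 51367 bp from the start. Heights of 26 were found in ZC3H3, a zinc finger protein gene (chromosome 8, 144536126 to 144537545, intron 9), in FNDC3A (chromosome 13, 49683888 to 49684892, intron 3) and in CRISPLD2, a secreted protein gene (chromosome 16, 84914732 to 84915988, intron 13). The interval in ZC3H3 had the highest score of the members, 386. The next were PDE4DIP, the gene of a centrosome and Golgi protein, with 25 on chromosome 1 (144889002 to 144892989), and PRKAG2, which encodes a regulatory subunit of the energy sensor AMPK, with 25 on chromosome 7 (151347419 to 151349529, intron 4). PDE4DIP and PARG have closely related copies in the genome, so their reads are less certain even when placed at 1 site.

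A height of 24 was found in 3 genes. These were PARG, which encodes the enzyme that degrades poly(ADP-ribose) (chromosome 10, 51120103 to 51121351, intron 3), ITGA11, a collagen-binding integrin (chromosome 15, 68643976 to 68645597, intron 7), and TOX2, an HMG-box protein (chromosome 20, 42602892 to 42604904, intron 2). The tenth by rank was SMAD3, the signal transducer of TGF-beta receptors, on chromosome 15 from 67417298 to 67419192, with a height of 23 and a score of 289. Beside ZC3H3, SLC1A3, SMAD3 and PDE4DIP, the 5 highest scores included WDR70, with 291 at a height of 16. Of the 10 tallest members, the AP-1 word was in the 200 bp of SLC1A3, PDE4DIP and SMAD3.

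The AP-1 word was in 179 of 512 members (35.0%, 95% interval 30.8 to 39.3) within the 200 bp around the summit. Windows of the same size 600 bp to either side of the same summits held it in 8.20% of cases, so the share at the summits was 4.26 times higher. All 457153 windows of 200 bp that tile the parts of the same genes over 50 kb from their starts held it in 6.56%, and the share at the summits was 5.33 times higher. The form with C or G in the centre, TGACTCA on 1 of the strands, was in 128 members (25.0%, 21.3 to 29.0), against 3.61% of flanks and 3.21% of tiles. The form with A or T there was in 67 (13.1%, 10.3 to 16.3), against 4.88% of flanks and 3.47% of tiles. It stood 2.68 times above its flanks, less than the 6.92 times of TGACTCA. A single word was found in 145 members, 2 in 29 and 3 in 5.

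Words were gathered at the summits. The 50 bp before the summit held 12.1 words per 100 members and the 50 bp after it 11.3, against 1.37 and 2.15 in the outermost bins 1000 bp away. The nearest word lay at a median of 39 bp from the summit among the 179 members with one. Only the 200 bp around the summit was searched, so this median is limited by the window and is no further sign of gathering. Summits were given on a coarse grid, 89.3% of them at multiples of 16 bp, so finer offsets cannot be read.

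**Figure D2:**
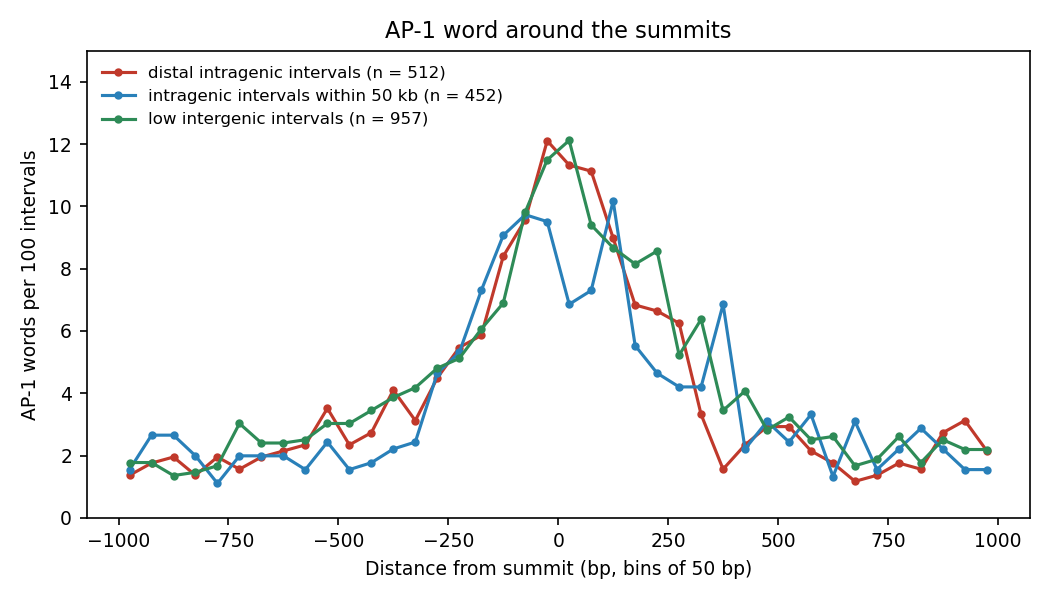
AP-1 words per 100 intervals in bins of 50 bp from 1000 bp before to 1000 bp after the summit, for 512 distal intragenic, 452 near intragenic and 957 low intergenic intervals. The distal curve is highest in the 50 bp before the summit, at 12.1 words, the near intragenic curve between 100 and 150 bp after it, at 10.2, and the low intergenic curve in the 50 bp after it, at 12.1.

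Without any list of factors, the same word came first. Among 2818 words of 7 bases present in at least 15 members, counted on both strands together, TGACTCA ranked first by ratio to the tiles, at 7.78 times. The next word, at 6.20 times, was the same site shifted by 1 base. Each of the top 7 words held GANTCA on one of its strands, and 10 of the top 20 did.

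Other classes of intervals held the AP-1 word as well. Near intragenic intervals held it in 130 of 452 (28.8%), 6.20 points less than the members, with a 95% interval of the difference from 0.296 to 12.0. For the form TGACTCA the difference was 3.98 points, with an interval from -1.36 to 9.25 that spans 0. Low intergenic intervals held the word in 329 of 957 (34.4%), a difference of 0.583 points with an interval from -4.46 to 5.73 that spans 0. All other intervals of the list, which include promoters, held it in 18.2%, 16.8 points less (12.6 to 21.2).

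Among the members the share with the word had no steady order by height. It was 35.3% at heights of 9 to 11, 28.0% at 12 or 13, 45.1% at 14 to 16 and 31.1% at 17 to 27. The highest part, at 14 to 16, exceeded the lowest, at 12 or 13, by 17.0 points (6.22 to 27.4). This is the largest gap between the parts, and its interval does not allow for the choice of that pair. By distance the share with the word was 33.2% from 50 to 100 kb, 41.4% from 100 to 200 kb and 31.5% beyond, with intervals that overlap. Members with the word had a median height of 14 and a median score of 89.7, and those without it 13 and 91.3. Members in genes with 3 or more of them held the word less often (28 of 107, 26.2%) than members alone in their gene (112 of 289, 38.8%), a difference of -12.6 points with an interval from -21.9 to -2.03. These groups were set apart after the values were seen. The 107 members lie in 28 genes, and the interval of the last difference counts members of the same gene as independent. It therefore leaves out variation between genes.

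Base composition at the members was moderate. Median GC content over 200 bp was 43.5%, compared with 41.0% in the flanks, 40.5% in the tiles, 45.0% in near intragenic and 45.0% in low intergenic intervals, and with 51.5% in all other intervals of the list. The selection removed CpG islands, which lowers this value. The share with the AP-1 word was 42.3% in members with GC content under 40% and 31.7% in those with 50% or more, a difference of 10.6 points (-1.54 to 22.0).

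In total 18 words were searched on both strands of the same 200 bp. TGANTCA and TGACTCA, which lies within it, were 2 of them. Short words occur often by themselves, and a match is not a bound site.

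None of the other words found in at least 5% of members stood as far above its flanks. The word of TEAD factors, GGAATG, was in 14.5% of members, against 10.8% of flanks and 11.1% of tiles. TTGCNNAA, the word of C/EBP factors, was in 14.6%, against 11.7% of flanks and 11.1% of tiles. For RUNX factors, with TGTGGT, the share was 16.6%, against 13.7% of flanks and 13.4% of tiles. The E-box CAGCTG of basic helix-loop-helix factors was in 10.4%, against 8.30% of flanks and 7.10% of tiles. STAT factors, with TTCNNNGAA, had 8.40%, against 6.64% of flanks and 6.95% of tiles. The GATA word AGATAA was in 13.9% of members and 14.4% of flanks. GTTCNANNC, the B box of genes read by polymerase III, was in 7.03% of members and 8.40% of flanks.

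Rarer words were read over few members. Forkhead factors, with TGTTTAC, had 4.30%, against 4.20% of flanks. The ETS word CCGGAAG was in 0.977% of members and 0.410% of tiles, and the YY1 word AAGATGGC in 0.195% of members and 0.867% of tiles. The core word of CTCF, which organises chromatin loops, was in 2 members (0.391%), against 0.0917% of tiles.

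Some words were rarer in the members than in all other intervals of the list, which include promoters, and lay near their own surroundings. GGGCGG, the GC box of SP and KLF factors, was in 2.15%, against 6.19% of near intragenic intervals, a difference of -4.05 points (-6.82 to -1.54), and 18.8% of all other intervals. Its share was 1.95% in the flanks of the members and 2.19% in the tiles. Low intergenic intervals held it in 3.34%, a difference of -1.20 points with an interval from -2.83 to 0.723 that spans 0. The E-box of MYC and USF, CACGTG, was in 2.34% of members, against 1.46% of flanks, 1.86% of tiles and 7.33% of all other intervals. Near intragenic intervals held CACGTG in 2.43% and low intergenic intervals in 2.93%, close to the members. The CREB and ATF word TGACGTCA and the words of NFI and NRF1 were in 0 of 512 members, which allows a share of up to 0.586% by a limit of 3 counts and 0.718% by the exact 95% interval. In all other intervals TGACGTCA was in 0.957%, the NRF1 word in 0.219% and the NFI word in 0 of 3657. Near intragenic intervals had 0 of 452 for each of these words. Low intergenic intervals had TGACGTCA in 0.418%, and the NFI and NRF1 words in 0 of 957. CpG islands were excluded by selection.

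**Figure D3:**
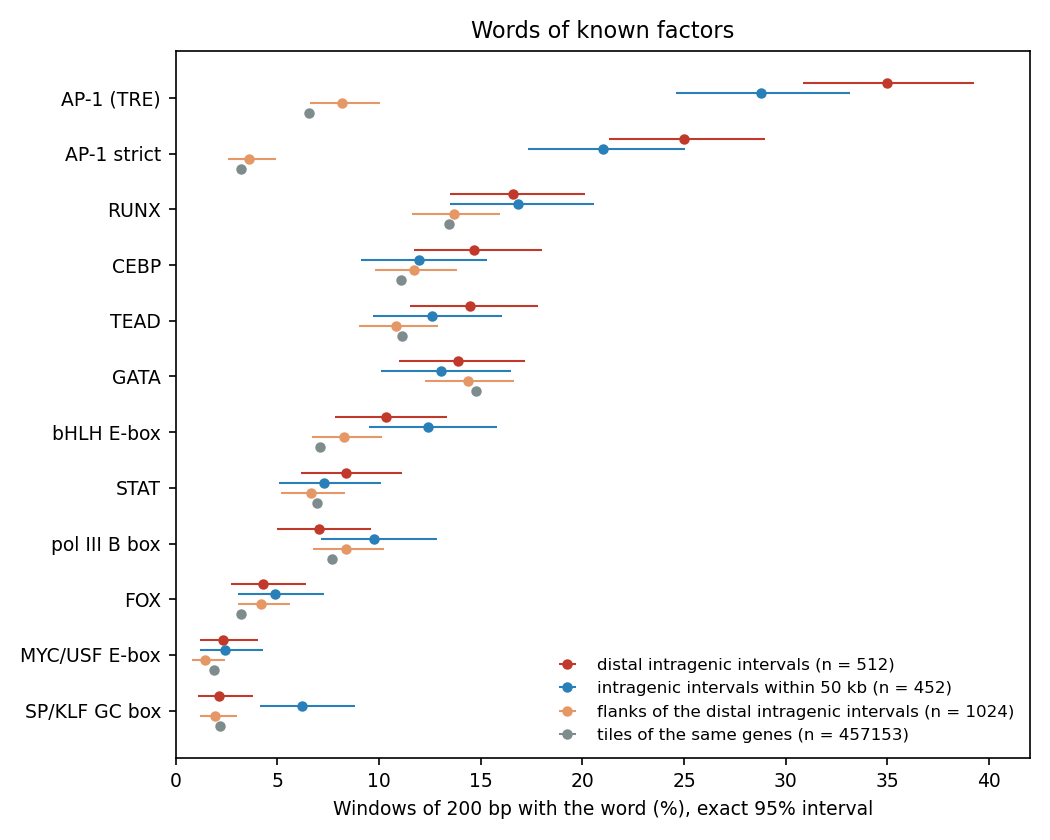
Share of 200 bp windows with each of 12 words in distal intragenic intervals, near intragenic intervals, flanks 600 bp away and all tiles of the same genes, with exact 95% intervals. The AP-1 words, at 35.0% and 25.0% in the distal intervals, lie far to the right of flanks and tiles, and other words lie closer to theirs. For the TEAD, C/EBP, RUNX and CAGCTG words the distal interval still lies above the share of the tiles. Of these, only that of TEAD also lies above the share of its flanks.

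The summits lay mostly in introns. By the annotation, 454 of 512 (88.7%, 85.6 to 91.3) were in introns of protein-coding genes and 37 (7.23%, 5.14 to 9.82) in exons, and 21 were outside protein-coding genes. Of all tile centres in the same genes, 3.94% were in exons. Of the 37 in exons, 8 were in coding sequence and 29 in non-coding exon parts. Exons of any annotated transcript of a protein-coding gene were counted. Some of the 37 therefore lay in an intron of the transcript marked as canonical for the gene. Near intragenic intervals had 88.1% in introns, 0.619 points less than the members (-3.43 to 4.75). Outside protein-coding genes lay 4.10% of the members and 7.08% of near intragenic intervals, a difference of -2.98 points (-6.06 to -0.0732). The introns that held members had a median length of 39.2 kb, and summits sat at a median of 64.0% of the gene's length from its start.

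The distance of over 50 kb holds for the gene start the authors used, and for some members not for every annotated start. For the tallest member in PARG the assigned distance of 250547 bp exceeds the annotated gene length of 104391 bp. A protein-coding PARG transcript began 9931 bp from that summit. Most members in MKLN1 and NAV2 lay outside the transcript marked as canonical for the gene. An annotated transcript began within 1000 bp of 59 summits (11.5%, 8.89 to 14.6), which was 5.79% for tile centres of the same genes. For 44 of them the transcript belonged to the same gene. For the other 15 its gene had another name, mostly that of a non-coding RNA or a pseudogene. These include members whose assigned symbol had no match in the annotation, such as LOC100129101. For such members, same or other gene was not determined. Protein-coding transcripts began within 1000 bp of 18 summits (3.52%, 2.10 to 5.50), against 1.49% of tile centres. Near intragenic intervals had 13.5% for any transcript, a difference of -1.97 points (-6.23 to 2.20).

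Of the 18, these are examples. The summit in FNDC3A (height 26) was 97 bp from a protein-coding transcript start, and that in SMAD3 (23) was 102 bp from one. In LTBP1, which encodes a protein that holds latent TGF-beta in the matrix, a summit with height 20 lay 49 bp from the start of a further annotated transcript and 187055 bp from the assigned start. PRLR, the prolactin receptor gene, had a height of 20 at 158 bp, and PTPRM, a receptor phosphatase gene, 11 at 12 bp. WWTR1, which encodes the Hippo pathway coactivator TAZ, had 11 at 167 bp, and the ubiquitin ligase gene NEDD4L had 12 at 26 bp. These genes were chosen after their values were seen, except FNDC3A and SMAD3.

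The AP-1 word was in 17 of the 59 members at an annotated start (28.8%) and in 162 of the other 453 (35.8%), a difference of -6.95 points (-17.9 to 6.33). To show both kinds, 61 bases about the word at inner starts of ST5 and NEDD4L are given, followed by the 60 bases around the FNDC3A summit, where none of the 200 bp held the word (capitals as above).
ST5 (chr11:8740926-8740986): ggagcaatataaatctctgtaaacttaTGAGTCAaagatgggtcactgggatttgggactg
NEDD4L (chr18:56029602-56029662): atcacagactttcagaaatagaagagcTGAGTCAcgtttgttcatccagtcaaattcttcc
FNDC3A (chr13:49684323-49684382): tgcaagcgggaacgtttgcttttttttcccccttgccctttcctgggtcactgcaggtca

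The 512 members were assigned to 375 genes or gene pairs. A single member was found in 289 of these, 2 members in 58 and 3 or more in 28, which together held 107 members. Longer genes had members more often: 41 of 3128 protein-coding genes of 50 to 100 kb (1.31%), 120 of 2161 of 100 to 200 kb (5.55%), 109 of 990 of 200 to 400 kb (11.0%) and 80 of 513 over 400 kb (15.6%). A longer gene has more sequence beyond 50 kb, so this order is given by the selection in part. Of all 6792 protein-coding genes over 50 kb, 350 (5.15%) had a member.

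PRKG1, the gene of the cyclic GMP-dependent protein kinase, held most, with 9 members among its 15 intervals. Their distances from the start ran from 119951 to 1225119 bp, the largest of any member, and their heights from 11 to 21. The AP-1 word was in 3 of the 9. Farthest after it were members in NRG1, a growth factor gene, at 1075596 bp with a height of 12, and in CACNA2D3, a calcium channel subunit gene, at 843339 bp with a height of 15.

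The others at the top were 5 genes with 5 or 6 members. MKLN1, the gene of muskelin, a ubiquitin ligase subunit, had 6, with heights from 15 to 19. PRKAG2 had 6, with heights of 22, 22, 19, 16, 25 and 17 in the order of distance from the start, and these were all of its intervals. PCDH9 had 6, with heights of 13, 23, 12, 12, 20 and 11 in that order. NAV2, a neuron navigator gene, had 5, with heights of 21, 13, 17, 15 and 12. RAD51L1, a recombination repair gene now named RAD51B, also had 5, with a range from 10 to 17. None of the members in PRKAG2, NAV2 or RAD51L1 held the AP-1 word, and 1 each did in MKLN1 and PCDH9. In all, 9 of the 28 genes with 3 or more members had no member with it.

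**Figure D4:**
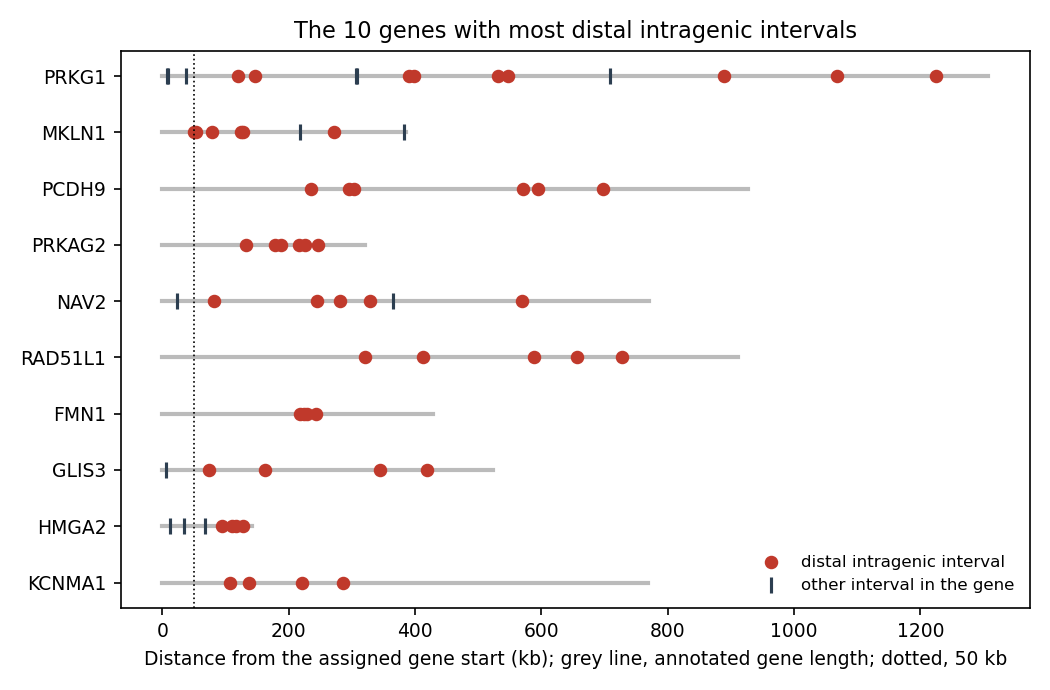
Positions of intervals in the 10 genes with most distal intragenic intervals, as distance from the assigned gene start in kb; red circles are distal intragenic intervals, dark ticks other intervals in the gene and grey lines the annotated gene length. PRKG1 has 9 red circles spread over more than 1000 kb, while the 4 of FMN1 lie between 218 and 243 kb.

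Some members lay near another one. Another member was within 10 kb of 58 (11.3%, 8.72 to 14.4) and within 100 kb of 195 (38.1%, 33.9 to 42.4). Any interval of the list was within 10 kb of 63 (12.3%) and within 100 kb of 286 (55.9%). No such share was taken for near intragenic intervals or for positions in the same genes. Whether members lie closer together than those was not tested. The 4 in FMN1, a formin gene, lay between 217637 and 242901 bp from its start. In HMGA2, an architectural chromatin protein gene, 4 members lay between 94288 and 128288 bp, with heights from 10 to 13. TRPM8, a cation channel gene, held 3 between 57445 and 65029 bp.

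In the TGF-beta and Hippo list 5 of 32 genes over 50 kb long had a member (15.6%, 5.28 to 32.8), against the 5.15% of all genes of that length. The median gene length of this list was 127 kb, against 107 kb for all genes over 50 kb, so length differs as well. For genes of 100 to 200 kb the share was 5.55%, inside the interval of the list. SMAD3 led with 23, STK4, the kinase MST1 of the Hippo pathway, had 17 and 16, and TGFBR2, a TGF-beta receptor gene, had 14. TEAD1, the DNA-binding partner of the pathway, had 13, and WWTR1 had 12, 12 and 11. The AP-1 word was in 6 of these 8 members: those of SMAD3, STK4 (both), TGFBR2 and WWTR1 (2 of 3). Over all members the share with the word was 35.0%. In the other lists described below the word was in 5 of 11 members (growth factor), 2 of 7 (integrin), 6 of 16 (transcription factor), 4 of 15 (NO), 1 of 7 (synaptic) and 7 of 17 (fragile sites). The same 9 members of PRKG1, 3 of them with the word, stand in both the NO and the fragile site list. Members of 1 gene are not independent, and some genes are in more than 1 list.

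Growth factor receptor and RAS-PI3K genes had members in 7 of 50 (14.0%, 5.82 to 26.7; median length 187 kb). PRKCE, a protein kinase C gene, and EPHB2, an ephrin receptor gene, each reached 17, and PRKCH reached 15. EGFR, the receptor often amplified in glioblastoma, had 2, with heights of 15 and 14, both in intron 1. Integrin, matrix and adhesion genes had members in 5 of 48 (10.4%, 3.47 to 22.7; 158 kb), led by ITGA11 with 24, LTBP1 with 20 and COL4A2, a basement membrane collagen gene, with 11. Of all genes of 100 to 200 kb 5.55% had a member, and of those of 200 to 400 kb 11.0%. Both values lie inside the interval of the integrin list. The interval of the growth factor list holds 11.0% and starts just above 5.55%.

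Long genes of transcription factors and chromatin proteins had members in 9 of 59 (15.3%, 7.22 to 27.0; 278 kb). SMAD3, which stands in both lists, led with 23, followed by ZFHX3, a zinc finger homeobox gene, with 18, and GLI3, a Hedgehog pathway factor, with 17. For NO, cyclic nucleotide and calcium signalling it was 6 of 43 (14.0%, 5.30 to 27.9; 344 kb). PRKG1 led with 21, and PRKCA and PDE7A, a phosphodiesterase gene, had 12 each. The 11.0% of all genes of 200 to 400 kb lies inside the intervals of both lists.

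Synaptic, channel and neuronal adhesion genes, with a median length of 1115 kb, had members in 4 of 53 (7.55%, 2.09 to 18.2), among them A2BP1, now RBFOX1, with 17, KCNMA1, a potassium channel gene, with 13, and LSAMP with 12. Genes of common fragile sites, with 1380 kb, had members in 6 of 25 (24.0%, 9.36 to 45.1), led by PRKG1 with 21, PARK2 with 19 and A2BP1 with 17. The 15.6% of all genes over 400 kb lies inside the intervals of both lists. Both lists share genes, and all of the lists were written with earlier results of these data known.

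Chromosomes differed in their number of members. Expected counts came from the length of protein-coding genes beyond 50 kb from their starts. The 21 members outside protein-coding genes were counted too, though this length leaves out the places where they lie. Chromosome 7 held 69 members, 2.03 times the expectation (1.58 to 2.57), and chromosome 9 held 33, 1.59 times (1.09 to 2.23). Chromosome 4 held 5, 0.158 times (0.0514 to 0.370), chromosome 22 held 1, 0.179 times (0.00454 to 0.998), and X held 1, 0.0456 times (0.00116 to 0.254). On the other chromosomes, Y included, the interval spanned 1. Chromosome 7 held 13.5% of the members, 9.07% of near intragenic intervals and 8.71% of the whole list. In the same order chromosome 9 held 6.45%, 7.74% and 5.13%, and chromosome 4 held 0.977%, 0.221% and 0.911%. For chromosome 22 the shares were 0.195%, 1.55% and 1.51%, and for X 0.195%, 0.885% and 0.600%. Low shares on chromosome 4 and on X were thus also seen in the whole list. The Poisson intervals count members as independent, though some lay close to each other. Copy number of U-87 MG was not measured here, and it cannot be told apart from binding. The share of members with the AP-1 word was 30.4% on chromosome 7 and 35.7% elsewhere, a difference of -5.23 points (-15.8 to 7.19).

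**Figure D5:**
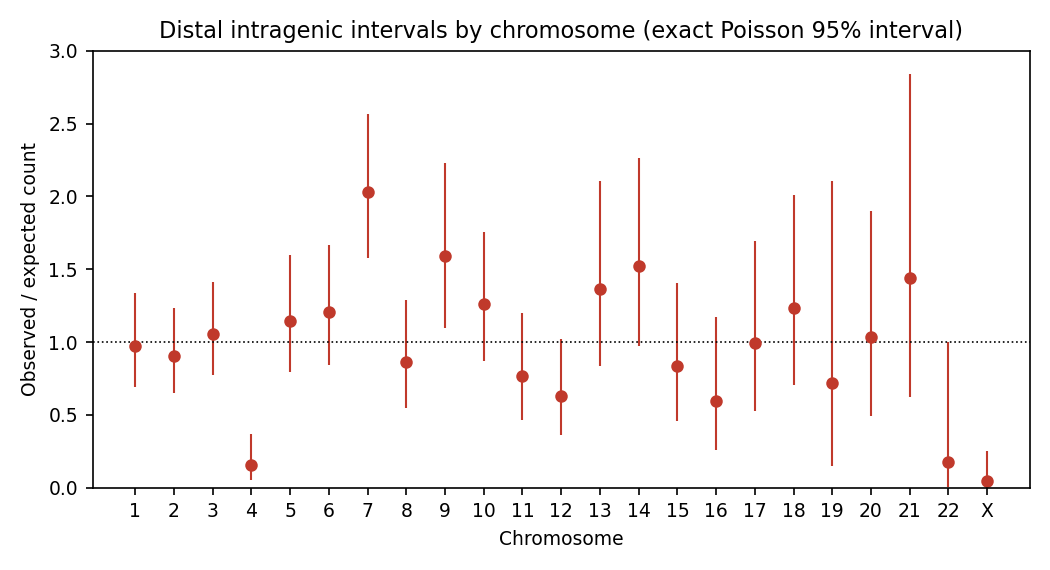
Observed over expected number of distal intragenic intervals per chromosome, with exact Poisson 95% intervals; the dotted line marks 1. Chromosome 7 stands highest at 2.03, and chromosomes 4, 22 and X lie below 1.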

How the data were processed

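The submitters' processing notes name BWA, MACS and hg19. The series' design states that the authors aligned 75 nt reads with default settings and kept unique ones with at most 2 mismatches. Tool versions, and whether MACS used the input, are not given in these sources. The deposited columns are a peak value and an average value, both signal (fragment density), a MACS score, and genes assigned by the authors with distances. Depth is unknown.

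Computed here: the members by the stated conditions; 200 bp windows around deposited summits, read from GRCh37, the same build; words on both strands; and places by GENCODE 44 mapped to GRCh37, with older symbols matched through RefSeq names (490 of 512 members matched). Shares have exact Clopper-Pearson and differences Newcombe 95% intervals. Tools were Python 3.11.15, pysam 0.24.0 and scipy 1.17.1; word counting was tested on simulated data. No p-value was computed, since there is 1 ChIP library.

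Members, lists and words were chosen with earlier results of these data known, among them a raised AP-1 share in gene bodies, so the AP-1 share is no independent support. Genes named are those of the 10 tallest members, the 5 highest scores, the 5 largest distances, the 5 genes with most members, with a tie for the last place, and up to 3 genes a list; genes named beyond that, at inner transcript starts, at the selection limits, in clusters or within lists, were chosen after their values were seen. Sequences were taken from the tallest members with the word, leaving out chromosome 8. The result of 1 further gene list is not reported here.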

Additional observations from a re-analysis of the deposited data

How the results depend on the processing

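Of 38 alternatives, 28 left the value within the 95% interval of the reported one. Among these, 1, leaving out members at an annotated transcript start, was chosen after seeing the data (35.8% with the AP-1 word). The AP-1 share of 35.0% was 19.5% in a window of 100 bp, 50.6% in one of 400 bp and 25.0% for TGACTCA, as fewer or more bases or fewer words are searched; it ran from 33.0% to 38.1% over 6 other choices of members (distance limit, height, score, chromosomes, 1 member a gene). Median GC content was 41.9% over the whole interval (the cause was not tested). The share at a transcript start was 3.52% with protein-coding transcripts and 33.4% within 5000 bp, by construction. Members with a neighbour within 10 kb were 8.03% at or above the median height and 7.03% at or above the median score, and the cause was not tested. They were 0.0% with 1 member a gene, which removes neighbours in the same gene, and 38.1% in the wider window of 100 kb. No paired analysis was possible because there is 1 ChIP library. Depth limits which low peaks were called and is unknown.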

Other observations

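Of the 512 members, 21 lay outside protein-coding genes, most of them in entries that overlap annotated non-coding RNA genes. LOC729178 on chromosome 6, which overlaps STXBP5-AS1, held 2, with heights of 21 and 13, and FLJ43663 on chromosome 7, which overlaps LINC-PINT in the annotation, held 2 with heights of 17 each. LOC100289178 on chromosome 1, which overlaps GNG12-AS1, held 2 with heights of 12 each, and both had 3 AP-1 words in their 200 bp. In all, 5 members had 3 words. PVT1, a long non-coding RNA gene next to MYC, held 2 with heights of 10 and 12, and FTX, listed as NCRNA00182, held the only member on X, with a height of 12 and an AP-1 word in its 200 bp.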
